A study of Homo sapiens with 12 samples.

Results

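The enzymes of glycolysis described here are HK2, PFKP, ALDOA, TPI1, GAPDH, PGK1, PGAM1, ENO1, PKM and LDHA, 10 genes chosen by their symbols. Of these, 9 were read by at least 1 probe set listed with their symbol alone, among 18405 genes tested. PGAM1, the phosphoglycerate mutase, was listed only on 4 probe sets that also name its close relative PGAM4, so no value is given for it.

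Glycolysis turns glucose into pyruvate in the cytosol and yields ATP and NADH without using oxygen. Hexokinase traps glucose in the cell, phosphofructokinase commits it to breakdown, aldolase splits the sugar into triose phosphates, and the later enzymes harvest their energy. Lactate dehydrogenase turns pyruvate into lactate and returns NAD+, and squamous carcinomas are known for running this route at a high rate.

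The samples came from FaDU and JHU-029, established lines grown from squamous carcinomas of the head and neck. TP63 encodes p63, a transcription factor that basal keratinocytes depend on. Each line received lentivirus with an shRNA against TP63 (shTP63) or with a control vector (shControl), and total RNA was taken 72 h later. This gave 12 arrays in 4 groups of 3, FaDU shTP63, FaDU shControl, JHU-029 shTP63 and JHU-029 shControl. The labels do not tell whether the 3 arrays of a group are separate cultures, so p-values here reflect no more than the scatter of these samples.

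Log2 intensities of arrays of 1 group correlated at 0.993 to 0.997 across probe sets, against 0.94 to 0.951 between lines. Of 15 markers of keratinocytes and epithelium, 12 were measured, and 11 of these in FaDU shTP63 and 12 in each other group lay above the array median, the defining KRT5 and KRT14 among them. Markers of other cell types lay mostly below it: 2 of 9 fibroblast markers in FaDU shTP63, 1 in FaDU shControl and 2 in each JHU-029 group exceeded the median. For immune cells the number was 3 of 8 in each FaDU group and 2 in each JHU-029 group, and for endothelium 2 of 8 in each FaDU group and 1 in each JHU-029 group. TP63's own transcript level was not analysed here.

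TPI1, triose phosphate isomerase, which interconverts the products of the aldolase step, was the enzyme that changed most after TP63 knockdown, and it fell in both lines. Its promoter is shown beside those of GAPDH, its neighbour in the pathway on the same chromosome, and of LDHA, at the end of the pathway. They stand for a gene that fell in both lines (TPI1), a gene that passed the test in neither (GAPDH) and a gene that fell slightly in FaDU (LDHA). Each line gives the 250 bases before the annotated start on the plus strand, from RefSeq, build GRCh38.p14, at chr12:6867281-6867530 for TPI1, chr12:6535014-6535263 for GAPDH and chr11:18394313-18394562 for LDHA. Capitals mark ACGTG or GCGTG on either strand, the core of the element bound by hypoxia-inducible factors.
TPI1: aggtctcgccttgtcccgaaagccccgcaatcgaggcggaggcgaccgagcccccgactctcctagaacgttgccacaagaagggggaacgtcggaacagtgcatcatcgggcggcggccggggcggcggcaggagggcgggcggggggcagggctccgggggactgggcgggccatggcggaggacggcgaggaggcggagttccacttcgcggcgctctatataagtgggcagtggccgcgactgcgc
GAPDH: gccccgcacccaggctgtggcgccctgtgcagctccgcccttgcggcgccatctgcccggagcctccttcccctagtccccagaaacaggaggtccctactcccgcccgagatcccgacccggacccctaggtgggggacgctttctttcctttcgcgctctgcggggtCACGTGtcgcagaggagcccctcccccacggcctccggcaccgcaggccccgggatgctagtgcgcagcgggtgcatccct
LDHA: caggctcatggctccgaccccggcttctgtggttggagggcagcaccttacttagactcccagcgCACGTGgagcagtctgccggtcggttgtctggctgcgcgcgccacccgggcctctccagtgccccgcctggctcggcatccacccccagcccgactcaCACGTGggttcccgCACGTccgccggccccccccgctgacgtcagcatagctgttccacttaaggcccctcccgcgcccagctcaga

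The TPI1 window held 0 matches to ACGTG or GCGTG and 5 to GGGCGG, the GC box bound by SP1. The GAPDH window held 2 core matches, which are both strands of a single CACGTG, the E-box bound by MYC and its relatives, and the LDHA window held 5, of which 4 are the strands of 2 such E-boxes. CACGTG contains ACGTG on each strand, so the counts of these motifs overlap. Of the 10 enzymes, PGAM1 included, 6 had a core match, against 43.2% of 35116 promoter windows of the same length in the table. An E-box was present in 2 of 10, against 6.34%, and a GC box in 8 of 10, against 42.6%. The half-site of the p53 family was matched in 1 of 10, PGAM1, against 5.57%. Each enzyme was read by its first listed window, whereas the background covers all windows, not only those of genes tested here. The shares are thus over unlike sets.

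On its brighter probe set (8180371), TPI1 read 10.87, 10.90 and 10.82 on the log2 scale in FaDU shTP63 (mean 10.87 ± 0.0399, SD, n = 3), against 12.18, 12.11 and 12.13 in FaDU shControl (12.14 ± 0.0336). In JHU-029 it read 11.15, 11.21 and 11.28 with shTP63 (11.21 ± 0.0658), against 12.08, 12.04 and 12.06 with shControl (12.06 ± 0.0208). All knockdown arrays lay below all control arrays in each line, and the gap between groups was far wider than the spread within them. TPI1 fell 2.42-fold in FaDU (log2 -1.27, 95% interval -1.39 to -1.16, SE 0.052, adjusted p = 1.65e-08 by limma) and 1.79-fold in JHU-029 (log2 -0.84, -0.96 to -0.73, SE 0.052, adjusted p = 1.69e-05). These were the 35th lowest change of 18405 in FaDU and the 8th lowest in JHU-029.

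The fall of TPI1 was larger in FaDU than in JHU-029, with a difference of -0.43 between the changes (95% interval -0.59 to -0.27, adjusted p = 0.00241). In the control groups FaDU exceeded JHU-029 by 0.08 on this probe set, which missed the threshold (-0.03 to 0.19, adjusted p = 0.193). The order of the groups was FaDU shControl, JHU-029 shControl, JHU-029 shTP63 and FaDU shTP63, and no neighbours in that order overlapped. Because whole cultures were measured, fewer cells with a transcript and less transcript per cell cannot be told apart here.

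A second probe set of TPI1 (7953508) was dim, at or below the array medians of 6.52 to 6.56 in FaDU and 6.46 to 6.51 in JHU-029 in 10 of the 12 arrays. It read 6.43, 6.45 and 6.17 in FaDU shTP63, against 6.91, 6.40 and 7.34 in FaDU shControl, and these arrays overlapped. In JHU-029 it read 5.68, 5.21 and 5.18 with shTP63, against 6.30, 6.16 and 6.35 with shControl, with no overlap. Its change of -0.53 in FaDU missed the threshold (SE 0.2, adjusted p = 0.0664), whereas it fell by 0.91 on the log2 scale in JHU-029 (SE 0.2, adjusted p = 0.0279). The probe sets thus pointed the same way in each line, but their differences between the lines had opposite signs, 0.38 for the dim one (95% interval -0.23 to 0.99, adjusted p = 0.452).

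**Figure D1:**
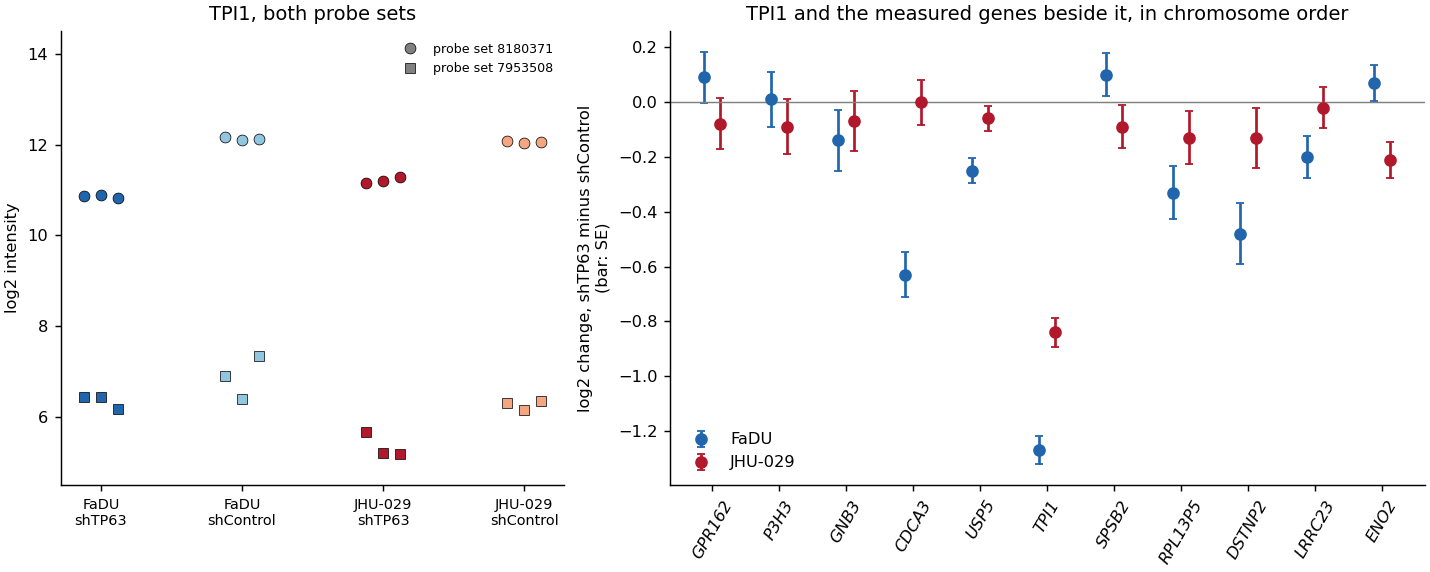
Left, log2 intensity of both TPI1 probe sets on each of the 12 arrays, by group, where the bright set lies at 10.82 to 10.90 in FaDU shTP63 and 12.11 to 12.18 in FaDU shControl. Right, log2 change (shTP63 minus shControl, bars SE) of TPI1 and the 5 nearest measured genes on each side in chromosome order, in FaDU and in JHU-029, where TPI1 has the lowest point in both lines (-1.27 and -0.84).

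The fall of TPI1 was not shared by all genes beside it. Of the 5 nearest measured genes on each side in the RefSeq order, 4 of 10 fell in FaDU and 0 rose, against 14.2% of all genes falling, with changes from -0.63 to 0.10. In JHU-029 0 of 10 passed, against 1.8% rising and 1.35% falling, with changes from -0.21 to 0.00. CDCA3, a cell cycle gene that lies 2 places away, fell by 0.63 in FaDU (adjusted p = 0.000105) and differed by 0.00 in JHU-029 (adjusted p = 0.998). USP5, the ubiquitin-specific protease next to TPI1, fell by 0.25 in FaDU (adjusted p = 0.0015) and differed by -0.06 in JHU-029 (adjusted p = 0.68). The others that fell in FaDU were the pseudogenes DSTNP2 by 0.48 and RPL13P5 by 0.33.

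Most of the other enzymes did not pass the test after TP63 knockdown. In FaDU, 3 of 9 fell (TPI1, HK2 and LDHA) and 0 rose, which is 33.3% against a background of 26.6% of all genes (12.5% higher and 14.2% lower). In JHU-029, 1 of 9 fell (TPI1) and 0 rose, which is 11.1% against 3.15% (1.8% higher and 1.35% lower). The median change over the 9 was -0.07 in FaDU, against 0.02 over all genes, and -0.01 in JHU-029, against 0.00. With TPI1 set aside, changes ran from -0.19 to 0.12 in FaDU and from -0.06 to 0.06 in JHU-029, and no 95% interval of these 8 enzymes reached beyond -0.32 or 0.23. The knockdown and control arrays were separate for 6 of 9 enzymes in FaDU, against 36.1% of all genes, and for 2 of 9 in JHU-029, against 24.9%.

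Other measured genes moved with the FaDU comparison. There 9 of the 12 keratinocyte and epithelial markers fell and 0 rose, against 14.2% of all genes falling and 12.5% rising. Their summed linear intensity was 17700 to 18360 in shTP63 arrays, against 25700 to 26150 in shControl arrays. In JHU-029, 0 fell and 1 rose, against 1.35% and 1.8% of all genes. The sums there were 44610 to 47270 in shTP63 and 47570 to 50020 in shControl. Of the immune and endothelial markers, 2 of 8 each rose in FaDU and 0 fell, against 12.5% of all genes rising and 14.2% falling. Sums for immune markers were 2300 to 2578 in shTP63 against 2203 to 2253 in shControl. For endothelial markers they were 1151 to 1245 against 764.6 to 783.8. Among the latter, CDH5 rose from a mean of 8.69 in shControl to 9.69 in shTP63. ESAM rose from 5.92 to 6.22, below the FaDU array medians of 6.52 to 6.56. The immune markers that rose were LYZ (4.13 to 4.89), also below these medians, and CD14 (6.66 to 7.17). The median change of the 8 endothelial markers was 0.02, as over all genes. The part of all these markers in the changes of the enzymes was not tested.

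**Figure D2:**
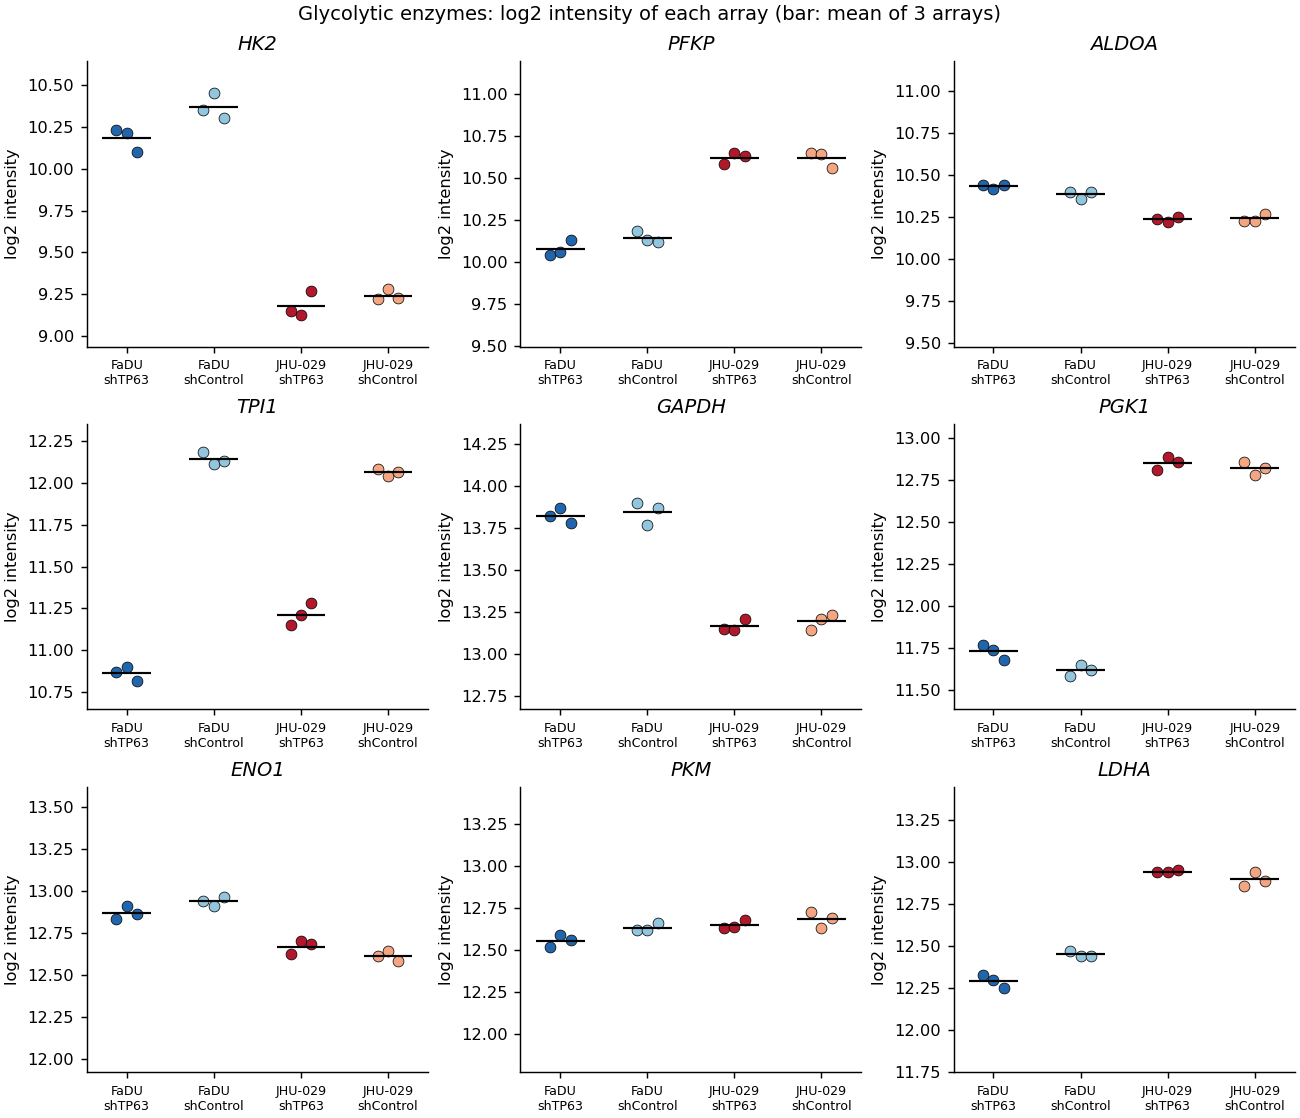
Log2 intensity of the 9 measured enzymes on each array, with FaDU shTP63, FaDU shControl, JHU-029 shTP63 and JHU-029 shControl side by side, points for arrays and bars for means of 3 arrays, on axes of equal length but different position. TPI1 is the enzyme whose knockdown groups (means 10.87 and 11.21) lie far below both control groups (12.14 and 12.06). The arrays of HK2, PFKP, ALDOA, GAPDH, PGK1, ENO1 and LDHA separate by line.

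At the entry of the pathway, HK2, the inducible hexokinase of tumours, read 10.23, 10.21 and 10.10 in FaDU shTP63, against 10.35, 10.45 and 10.30 in FaDU shControl. The FaDU groups did not overlap, and HK2 fell by 0.19 (SE 0.062, adjusted p = 0.0418). In JHU-029 it read 9.15, 9.13 and 9.27 with shTP63, against 9.22, 9.28 and 9.23 with shControl, which overlapped (log2 -0.06, 95% interval -0.19 to 0.07, adjusted p = 0.768). The FaDU call was close to the threshold: it was lost in 8 of 12 fits without 1 array, namely without FaDU shTP63 replicate 2 or 3, FaDU shControl replicate 1 or 2, JHU-029 shTP63 replicate 2 or any JHU-029 shControl array (adjusted p of up to 0.147). It was also lost under cyclic loess scaling (0.0949) and with FaDU fitted alone (0.124), and the changes in the lines did not differ past the threshold (-0.13, adjusted p = 0.418).

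PFKP, the platelet-type phosphofructokinase, read 10.04, 10.06 and 10.13 in FaDU shTP63, against 10.18, 10.13 and 10.12 in FaDU shControl, a change of -0.07 (95% interval -0.18 to 0.04, adjusted p = 0.366). In JHU-029 it read 10.58, 10.65 and 10.63 with shTP63, against 10.65, 10.64 and 10.56 with shControl, a change of 0.00 (-0.11 to 0.12, adjusted p = 0.991). The groups overlapped in both lines. ALDOA, the aldolase of most tissues, differed by 0.05 in FaDU (-0.05 to 0.15, adjusted p = 0.477), where its arrays read 10.44, 10.42 and 10.44 with shTP63, against 10.40, 10.36 and 10.40 with shControl. In JHU-029 its arrays spanned 10.22 to 10.25 with shTP63 and 10.23 to 10.27 with shControl (-0.01, adjusted p = 0.964).

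GAPDH, which oxidises glyceraldehyde 3-phosphate and often serves as a loading control, passed the test in neither line. It read 13.82, 13.87 and 13.78 in FaDU shTP63, against 13.90, 13.77 and 13.87 in FaDU shControl (log2 -0.02, 95% interval -0.14 to 0.10, adjusted p = 0.817). In JHU-029 it read 13.15, 13.14 and 13.21 with shTP63, against 13.14, 13.21 and 13.23 with shControl (-0.03, -0.15 to 0.09, adjusted p = 0.903). Both intervals leave out a change of the size seen for TPI1. PGK1, which makes the first ATP of the pathway, was higher in all FaDU shTP63 arrays (11.77, 11.74 and 11.68) than in FaDU shControl (11.58, 11.65 and 11.62), but the difference of 0.12 missed the threshold (SE 0.051, adjusted p = 0.119). With a trended variance prior it passed (adjusted p = 0.00927), and in JHU-029 the difference was 0.03 (adjusted p = 0.864).

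ENO1, the enolase of most cells, spanned 12.83 to 12.91 in FaDU shTP63 and 12.91 to 12.96 in FaDU shControl, a change of -0.07 (adjusted p = 0.361), and its change in JHU-029 was 0.06 (adjusted p = 0.71). PKM, the pyruvate kinase of proliferating tissue and muscle, spanned 12.52 to 12.59 in FaDU shTP63 and 12.62 to 12.66 in FaDU shControl, groups that did not overlap although the change of -0.07 missed the threshold (adjusted p = 0.312). In JHU-029 PKM differed by -0.03 (adjusted p = 0.87). The probe set does not tell the splice forms PKM1 and PKM2 apart in these gene-level values.

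LDHA, the lactate dehydrogenase subunit that favours lactate formation, read 12.33, 12.30 and 12.25 in FaDU shTP63, against 12.47, 12.44 and 12.44 in FaDU shControl. It fell by 0.15 in FaDU (SE 0.047, adjusted p = 0.0283), with no overlap. In JHU-029 it read 12.94, 12.94 and 12.95 with shTP63, against 12.86, 12.94 and 12.89 with shControl, a difference of 0.05 that missed the threshold (adjusted p = 0.752). The difference between the lines, -0.20, missed it as well (95% interval -0.35 to -0.06, adjusted p = 0.0668), although it passed with dim probe sets left out (adjusted p = 0.0276) or with a trended variance prior (0.00079). The FaDU call was lost without FaDU shTP63 replicate 2 or 3 or FaDU shControl replicate 1 or 3 (adjusted p of up to 0.097) and with FaDU fitted alone (0.13).

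**Figure D3:**
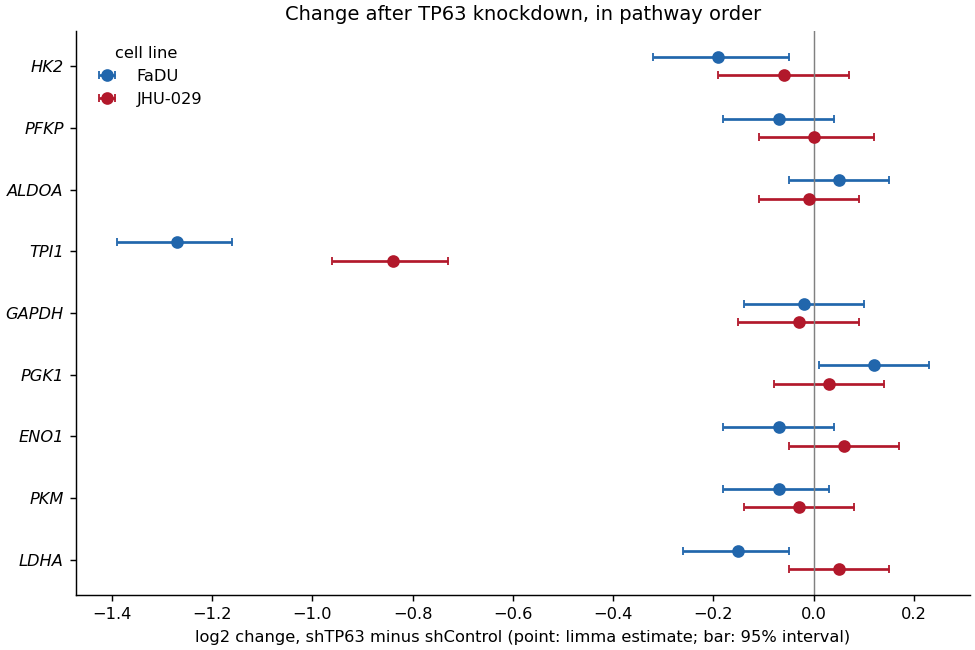
Log2 change (shTP63 minus shControl) of each measured enzyme in pathway order, in FaDU (upper point of each pair) and JHU-029 (lower point), with 95% intervals from limma. TPI1 stands at -1.27 and -0.84, and all other points lie between -0.19 and 0.12.

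Of the 9 enzymes, TPI1 alone passed the test of a difference between the responses of the lines (FaDU effect minus JHU-029 effect), which is 11.1% against a background of 13.2% (4.97% higher and 8.25% lower). The median difference over the 9 was -0.07, against 0.01 over all genes. The titles of FaDU shControl replicates 1 and 2 carry an extra word that no label explains. Without both, which leaves 1 FaDU control array, TPI1 changed by -1.27 in FaDU (adjusted p = 1.06e-05), while HK2 (-0.12, adjusted p = 0.382) and LDHA (-0.14, adjusted p = 0.178) missed the threshold.

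By the median over the enzymes, the control groups of the lines were further apart than knockdown and control. TPI1 was an exception on its bright probe set (0.08 between lines, against -1.27 in FaDU and -0.84 in JHU-029). So was PKM in FaDU (-0.05 between lines, against -0.07). The median size of the difference between lines was 0.45 on the log2 scale, against 0.31 over all genes, and that of the knockdown change was 0.07 in FaDU and 0.03 in JHU-029, against 0.13 and 0.07. In the control groups 7 of 9 differed, 4 higher and 3 lower in FaDU, which is 77.8% against a background of 63.8% of all genes (33.4% higher and 30.4% lower). HK2 was 2.18-fold higher in FaDU shControl than in JHU-029 shControl (means 10.37 ± 0.0802 and 9.24 ± 0.0326, SD, n = 3 each, adjusted p = 4e-09). GAPDH was 1.57-fold higher (13.85 ± 0.0666 and 13.19 ± 0.045, adjusted p = 2.22e-07), and ENO1 was 1.25-fold higher (12.93 ± 0.0258 and 12.61 ± 0.031, adjusted p = 8e-05). The small difference of ALDOA, 0.14 (adjusted p = 0.0147), was lost under median centring (0.09, adjusted p = 0.174) and without both FaDU shControl arrays of the extra title word (0.16, adjusted p = 0.0582).

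PGK1 went the other way and was 2.3-fold lower in FaDU shControl than in JHU-029 shControl (11.62 ± 0.0358 and 12.82 ± 0.0388, log2 -1.20, SE 0.051, adjusted p = 3.55e-10). PFKP was 1.39-fold lower (10.14 ± 0.0347 and 10.62 ± 0.0481, adjusted p = 3.14e-06), and LDHA was 1.36-fold lower (12.45 ± 0.0175 and 12.90 ± 0.0376, adjusted p = 2.39e-06). PKM (-0.05, adjusted p = 0.393) and TPI1 did not pass. The control arrays of the lines were separate for 8 of 9 enzymes, against 69% of all genes, PKM being the one that overlapped. The labels list several culture media without assigning them to a line, so line and medium cannot be told apart.

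Of 19 isoenzymes and remaining steps of glycolysis, 10 were higher and 2 lower in FaDU shControl than in JHU-029 shControl, against a background of 33.4% higher and 30.4% lower, so the isoenzymes passed about as often as all genes (63.8%). LDHB, the subunit that favours pyruvate formation, was higher by 1.02 on the log2 scale in FaDU shControl (SE 0.047, adjusted p = 7.53e-10), opposite to LDHA. PFKM, the muscle-type phosphofructokinase, was higher by 0.53 (adjusted p = 3.8e-06), opposite to PFKP. HK1 was higher by 0.33 (adjusted p = 6.03e-05) and the glucose phosphate isomerase GPI by 0.24 (adjusted p = 0.00133), while PFKL (0.08, adjusted p = 0.234) and ENO2 (0.13, adjusted p = 0.101) did not pass. The aldolase ALDOC was higher by 1.08 (adjusted p = 3.23e-08), and BPGM, which makes 2,3-bisphosphoglycerate from a glycolytic intermediate, was lower by 3.24 (log2 -3.24, adjusted p = 2.01e-12).

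**Figure D4:**
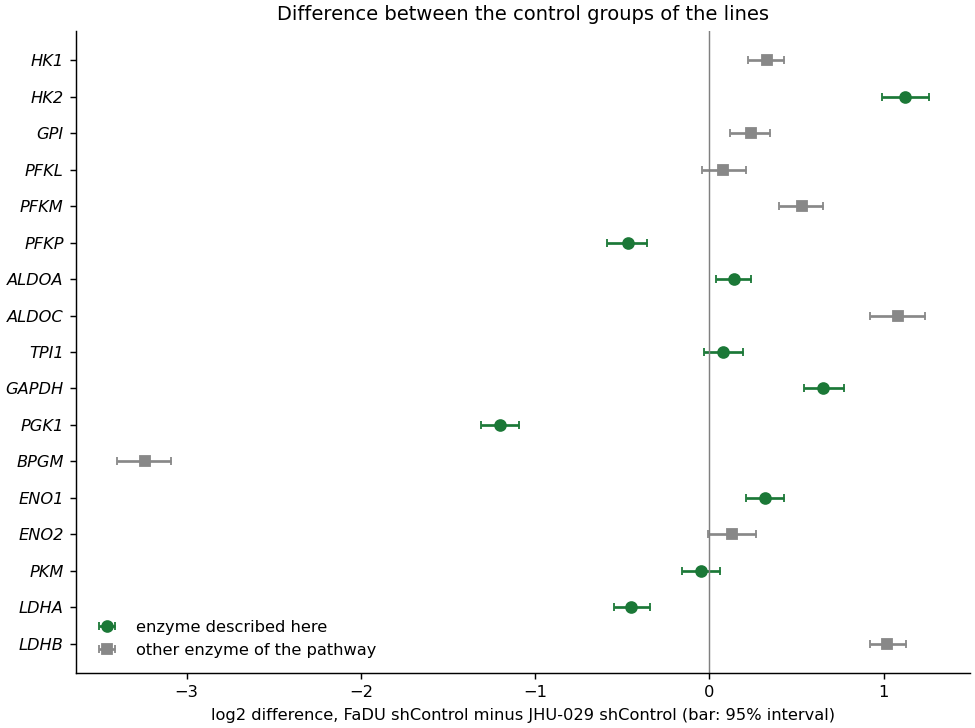
Log2 difference between the control groups (FaDU shControl minus JHU-029 shControl, bars 95% intervals) for the measured enzymes described here (circles) and other enzymes of the pathway (squares), in pathway order. PGK1 at -1.20 and HK2 at 1.12 mark the ends of the circles, and LDHA at -0.45 and LDHB at 1.02 lie on opposite sides of 0.

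After TP63 knockdown, 19 isoenzymes and remaining steps of glycolysis had 1 rising and 2 falling in FaDU, and 0 rising and 1 falling in JHU-029. For this and the following lists, the background is 12.5% of all genes rising and 14.2% falling in FaDU, and 1.8% rising and 1.35% falling in JHU-029. The median change of the 19 was 0.04 in FaDU and -0.04 in JHU-029, against 0.02 and 0.00 over all genes. In FaDU, PFKM fell by 0.30 (SE 0.059, adjusted p = 0.00192) and ALDOC rose by 0.30 (SE 0.074, adjusted p = 0.00962). Both calls were lost without both FaDU shControl arrays of the extra title word (-0.27, adjusted p = 0.0506 and 0.21, adjusted p = 0.155). The other fall, that of the dim hexokinase-like gene HKDC1 (-0.30, adjusted p = 0.0189), was lost without FaDU shTP63 replicate 1 or FaDU shControl replicate 3 (up to 0.0792). BPGM differed by 0.09 in FaDU (adjusted p = 0.432) and fell by 0.51 in JHU-029 (SE 0.072, adjusted p = 0.00233), a difference that passed (0.60, adjusted p = 0.00229).

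Among 16 measured carriers of glucose and lactate, 2 rose and 2 fell in FaDU and 1 rose in JHU-029, with medians of 0.01 and -0.01. The glucose carrier SLC2A3 rose by 0.80 in FaDU (SE 0.13, adjusted p = 0.00063), with means of 6.31 in shTP63 and 5.51 in shControl, both below the FaDU array medians of 6.52 to 6.56. The monocarboxylate carrier SLC16A7 rose there by 0.46 (adjusted p = 0.000479), and SLC2A9, a urate carrier, fell by 0.79 (adjusted p = 2.68e-05). SLC2A1, the main glucose carrier of squamous tumours, fell by 0.18 in FaDU (SE 0.057, adjusted p = 0.0308). This call was lost without FaDU shTP63 replicate 1 or 3 or FaDU shControl replicate 1 or 2 (up to 0.0962) and with FaDU fitted alone (0.09), and the change in JHU-029 was 0.00 (adjusted p = 0.996). The JHU-029 rise was that of SLC16A7 (0.32, adjusted p = 0.0357), which was lost without any 1 of the 6 JHU-029 arrays (up to 0.137). The lactate carriers SLC16A1 and SLC16A3 had no probe set with a single symbol.

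Of 17 genes that control glycolytic flux and pyruvate entry, 6 rose and 1 fell in FaDU, with a median of 0.07, and 1 rose and 1 fell in JHU-029, with a median of 0.04. PDK2, a kinase that switches pyruvate dehydrogenase off, rose by 0.55 in FaDU (SE 0.065, adjusted p = 5.07e-05) and differed by -0.23 in JHU-029 (adjusted p = 0.0894). PDHX, a structural part of that complex, rose by 0.35 in FaDU (adjusted p = 0.00263). PDP1, the phosphatase that switches the complex on, rose by 0.21 in FaDU (adjusted p = 0.00797) and by 0.44 in JHU-029 (adjusted p = 0.00065). Its FaDU call was lost with FaDU fitted alone (0.0544) and without both FaDU shControl arrays of the extra title word (0.104). PFKFB4, which sets the level of a phosphofructokinase activator, differed by -0.02 in FaDU (adjusted p = 0.841) and fell by 0.41 in JHU-029 (SE 0.05, adjusted p = 0.000978). Its FaDU means, 6.48 in shTP63 and 6.5 in shControl, lay near the FaDU array medians of 6.52 to 6.56.

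Among 14 transcription factors known to act on glycolytic genes, 2 rose and 4 fell in FaDU and 2 fell in JHU-029, with medians of 0.01 and -0.05. In FaDU MYC fell by 0.38 (SE 0.056, adjusted p = 0.000261). In JHU-029 it fell by 0.26 (adjusted p = 0.0261), a call lost without any 1 of the 6 JHU-029 arrays (up to 0.12) and under median centring (0.0581). HIF1A, the oxygen-sensitive subunit of the hypoxia factor, differed by 0.04 in FaDU (adjusted p = 0.672) and 0.08 in JHU-029 (adjusted p = 0.612). Its relative EPAS1 differed by -0.01 in FaDU (adjusted p = 0.962) and fell by 0.35 in JHU-029 (SE 0.057, adjusted p = 0.00582).

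Of 26 measured hypoxia-inducible genes outside glycolysis, 9 rose and 8 fell in FaDU, with a median of 0.13, against a background of 12.5% rising and 14.2% falling. In JHU-029 1 fell, against 1.35%, with a median of -0.02. In FaDU the mitophagy receptors BNIP3 and BNIP3L rose by 0.58 (adjusted p = 0.000136) and 0.52 (adjusted p = 0.000169), whereas the angiogenic factor VEGFA fell by 0.74 (adjusted p = 2.93e-06) and the glycoprotein STC2 by 0.96 (adjusted p = 3.75e-07). The JHU-029 fall was that of the carbonic anhydrase CA12, which differed by 0.24 in FaDU (adjusted p = 0.108) and fell by 1.05 in JHU-029 (SE 0.1, adjusted p = 0.000168). The FaDU means of CA12, 6.22 in shTP63 and 5.98 in shControl, lay below the FaDU array medians of 6.52 to 6.56. This limits what can be read from its FaDU change.

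**Figure D5:**
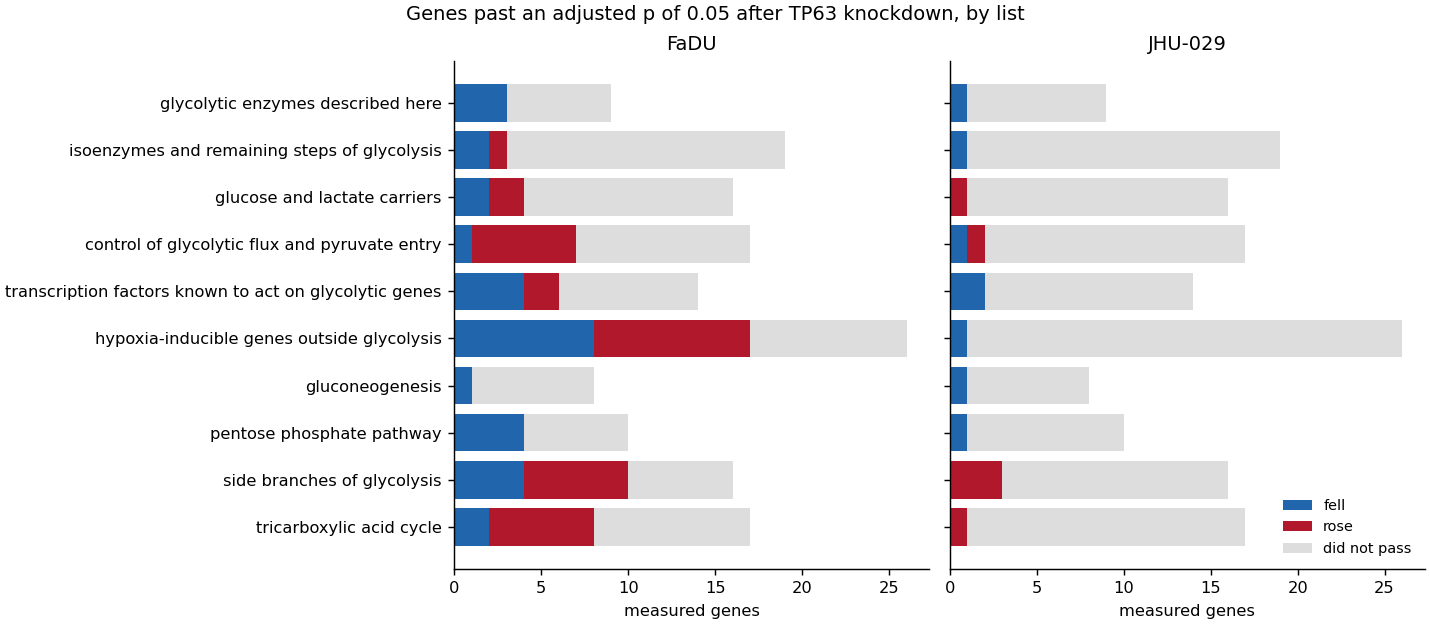
Number of measured genes in each list that fell, rose or did not pass an adjusted p of 0.05 after TP63 knockdown, in FaDU (left) and JHU-029 (right). Of the 9 enzymes described here 3 fell in FaDU and 1 in JHU-029, and the hypoxia list has 8 falling and 9 rising of 26 in FaDU.

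In the routes that branch from glycolysis, the 10 measured genes of the pentose phosphate pathway had 4 falling and 0 rising in FaDU, with a median of -0.12, and 1 falling in JHU-029, with a median of -0.03. PRPS1, which makes the ribose donor of nucleotide synthesis, fell by 0.47 in FaDU (adjusted p = 0.00053), and RPIA, ribose 5-phosphate isomerase, by 0.34 (adjusted p = 0.000697). Side branches such as glycogen, hexosamine and glycerol phosphate metabolism had 6 of 16 rising and 4 falling in FaDU (median 0.05), and 3 rising in JHU-029 (median 0.07). PGM2L1, which makes glucose 1,6-bisphosphate, rose in both lines, by 1.18 in FaDU (adjusted p = 5.17e-07, SE 0.077) and by 0.75 in JHU-029 (adjusted p = 0.000285). The glycogen phosphorylase PYGL fell by 0.66 in FaDU (adjusted p = 1.7e-06). GPD2, the mitochondrial glycerol phosphate dehydrogenase, rose by 0.26 in FaDU (adjusted p = 0.00587; 0.115 without both FaDU shControl arrays of the extra title word) and by 0.48 in JHU-029 (adjusted p = 0.0011).

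Of 8 gluconeogenesis genes, 1 fell in each line, PCK2, the mitochondrial phosphoenolpyruvate carboxykinase, with medians of 0.06 in FaDU and -0.08 in JHU-029. Its fall in FaDU was by 0.60 (SE 0.049, adjusted p = 3.14e-06) and that in JHU-029 by 0.28 (adjusted p = 0.0103), the JHU-029 call being lost without JHU-029 shTP63 replicate 2 or JHU-029 shControl replicate 1 (up to 0.0546). The 17 genes of the tricarboxylic acid cycle had 6 rising and 2 falling in FaDU (median 0.10) and 1 rising in JHU-029 (median 0.08). IDH3A, a subunit of the NAD-dependent isocitrate dehydrogenase, fell by 0.29 in FaDU (adjusted p = 0.000858) and rose by 0.32 in JHU-029 (adjusted p = 0.00445), and this difference passed (-0.61, adjusted p = 0.000183).

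The patterns nearest to these enzymes were sought over the 12 arrays after centring each gene in each line. The closest to TPI1 by Pearson's r were CPNE3 and B4GALNT1 (r = 0.993 each), followed by BTRC, TAF9B and TMEM64 (0.991 each). All 5 fell in both lines, B4GALNT1, a ganglioside synthase, by 0.98 in FaDU and 0.68 in JHU-029. The closest to the mean of the 9 enzymes were RAB38 (0.991), PRKCH (0.986), PKP4 and CPNE3 (0.985 each) and LYPLA1 (0.983), which also fell in both lines. Within the 9 enzymes, centred values of TPI1 ran with those of HK2 (r = 0.77) and PKM (0.72) and against those of PGK1 (-0.74). These values describe the ranking only, since the arrays share the knockdown groups and the mean follows its member with the widest change, TPI1.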

How the data were processed

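The deposited table holds linear intensity, 1 value per probe set and array. The authors made it by robust multi-array averaging (RMA) in R 2.15.1, per the submitters' processing notes. Neither the array's genome build nor the RMA implementation is given in the sources used here. The deposited intensities were put on the log2 scale, on which every test was run. Of 32321 probe sets, 19159 carried 1 gene symbol in the array's annotation table, 1387 several and 11775 were not listed. The brightest probe set stood for a gene, which gave 18405 genes, 637 with several probe sets.

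With limma 3.58.1 (R 4.3.3), 1 model of the 4 group means was fitted to the 12 arrays (8 residual degrees of freedom, prior of 4.165). Two-sided p-values were adjusted by the Benjamini-Hochberg method over all genes of a contrast, with a threshold of 0.05. Precision is limited by how many arrays there are. The script was tested on simulated data. The enzymes and gene lists were chosen with earlier results of these data known. From each list up to 3 genes per direction and line could be named, besides a fixed set (HK1, GPI, PFKL, PFKM, ALDOC, ENO2, LDHB, SLC2A1, SLC16A1, SLC16A3, HIF1A, MYC, KRT5, KRT14), the 5 genes nearest in pattern and the 5 measured genes on each side of TPI1. Alternatives covered array scaling, dim probe sets, the variance prior, each pair of groups fitted alone, a replicate block and leaving out arrays. Same-numbered arrays of shTP63 and shControl deviated together with r of -0.081, -0.067 and 0.013 in FaDU and of -0.339, -0.01 and -0.199 in JHU-029. The numbers were therefore not taken to pair samples, though with 3 arrays per group these values cannot exclude a pairing. Promoter windows came from a RefSeq table (GRCh38.p14), matched by symbol for all 10 enzymes.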

Additional observations from a re-analysis of the deposited data

Results flagged for a closer look

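For 62 named genes and enzymes the responses of the lines were compared, and 32 differed past the threshold (FaDU effect minus JHU-029 effect on the log2 scale, limma adjusted p), against 13.2% of all genes. Most of these genes were named because they passed in a line, so the share is no result about them. No group held enough arrays for a check of single arrays far from the rest. No explanation was weighed. Without both FaDU shControl arrays of the extra title word, 8 of the 32 differences were lost, those of KRT14, PDHB, ARNT, FAM162A, TKT, PGM2L1, PGP and IDH2 (adjusted p of up to 0.299). Under median centring those of PDHB, ARNT and TKT were lost (up to 0.111), that of TKT also under cyclic loess (0.0629), and that of RPIA with a trend in the variance prior (0.0587).

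Within glycolysis, the difference was -0.43 for TPI1 (changes of -1.27 in FaDU and -0.84 in JHU-029), 0.51 for ALDOC (0.30 and -0.21) and 0.60 for BPGM (0.09 and -0.51). Among carriers it was 0.78 for SLC2A3 (adjusted p = 0.0153) and -0.55 for SLC2A9 (adjusted p = 0.00998). The means of SLC2A3 lay below the array medians in both lines, at 5.15 in JHU-029 shTP63 and 5.13 in JHU-029 shControl. This limits what can be read from its difference. Among genes of flux control it was 0.39 for PFKFB4, whose FaDU means lay near the array medians, 0.78 for PDK2 and 0.40 for PDHB. That of PDHB (adjusted p = 0.0468) was lost in 9 of 12 fits without 1 array (up to 0.106).

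Among transcription factors the difference was 0.34 for EPAS1 (adjusted p = 0.0141) and 0.26 for ARNT (adjusted p = 0.0467), the call of ARNT being lost in 11 of 12 fits without 1 array (up to 0.111). Hypoxia-inducible genes differed in both directions, at 1.29 for CA12, 0.78 for BNIP3, 0.48 for BNIP3L and 0.40 for KDM3A, and at -0.84 for STC2, -0.75 for VEGFA and -0.42 for FAM162A. The FaDU means of CA12 lay below the array medians. KDM3A was lost in 8 of 12 fits without 1 array (up to 0.0678), and FAM162A without JHU-029 shControl replicate 3 (0.0578).

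In neighbouring routes the difference was -0.32 for PCK2, 0.46 for H6PD, -0.47 for PRPS1, -0.29 for RPIA and -0.26 for TKT. RPIA was lost in 8 (up to 0.0902) and TKT in 10 (up to 0.11) of 12 fits without 1 array. It was 0.43 for PGM2L1 and -0.36 for PGM2, both lost without JHU-029 shControl replicate 3 (0.0597 and 0.0521). It was 0.40 for GFPT1, -0.60 for PYGL, -0.82 for GPD1L and -0.34 for PGP, and in the tricarboxylic acid cycle -0.61 for IDH3A and 0.44 for IDH2. Of the basal keratins, KRT5 differed by -1.30 (-1.41 in FaDU and -0.11 in JHU-029, adjusted p = 1.9e-06) and KRT14 by -0.38 (adjusted p = 0.0294), the call of KRT14 being lost in 7 of 12 fits without 1 array (up to 0.08).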

How the results depend on the processing

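On the bright probe set (8180371), the TPI1 calls held in every alternative run that gave a value. Changes were -1.29 to -1.25 in FaDU (adjusted p of up to 3.4e-05) and -0.88 to -0.81 in JHU-029 (up to 0.00473). The difference between lines was -0.46 to -0.39 (up to 0.0262). All these runs read the bright probe set. The dim one (7953508) was not called in FaDU (adjusted p = 0.0664), and its difference between lines had the opposite sign (0.38). The number of enzymes called was 1 in JHU-029 throughout and 6 or 7 between the control groups. In FaDU it was 3, with 4 under a trend in the variance prior (PGK1 added), 2 under cyclic loess, and 1 with each pair of groups fitted alone or without both FaDU shControl arrays of the extra title word. Without 1 array it ranged from 1 to 3, at 1 without FaDU shTP63 replicate 2 or 3 or FaDU shControl replicate 1. For the difference between lines it was 1, with 2 when dim probe sets were left out (LDHA added) and 3 with a trend in the variance prior (LDHA and ENO1 added).

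Signs turned for changes near 0. PFKP in JHU-029 was -0.01 under cyclic loess, with -0.02 to 0.02 without 1 array. The GAPDH difference between lines was -0.01 under median centring and -0.02 without the arrays of the extra title word, with -0.03 to 0.03 without 1 array. ALDOA in JHU-029 ranged from -0.02 to 0.00 and GAPDH in FaDU from -0.06 to 0.00.

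With the replicate number as a fixed block, 1 enzyme (TPI1) was called in FaDU, and calls over all genes numbered 172 in JHU-029, against 580, and 1396 for the difference between lines, against 2434. The fixed block also lost 13 of the 32 differences between lines (adjusted p of up to 0.141). The fixed block, set within lines, gives no value for the comparison of control groups. The random block gave 2 enzymes in FaDU and, as without it, 7 between the control groups. Whether the numbers pair the samples was not settled here. The JHU-029 count over all genes was 880 without dim probe sets, 1015 with a trend, and 229 to 273 without JHU-029 shControl replicate 1 (269), 2 (232) or 3 (229) or JHU-029 shTP63 replicate 2 (238) or 3 (273). Probe sets near the array median, such as the second one of TPI1, limit what can be read from their changes.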
